A study of Mus musculus with 30 samples.

Results

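The genes described here are 10 genes of amino acid uptake and of the amino acid stress response in mouse colon, out of 46078 genes in the count table. They were the transporter genes Slc7a5, Slc3a2, Slc7a11, Slc6a14, Slc38a2 and Slc1a5, the asparagine synthetase gene Asns, the transcription factor genes Atf4 and Ddit3, and Trib3. They were chosen by name with earlier results of these data known, and the response of Slc7a5 to diet in each sex was part of that choice. The comparisons of diet are therefore given as levels, fold changes and counts past a threshold, with no p-value printed for any of the 10 genes and nothing read from the counts. The same libraries form the comparisons of the sexes, and the males on high-fat diet are the reference of the estradiol comparison. These comparisons are therefore also given without a p-value for Slc7a5.

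RNA-seq was performed on colon tissue from 30 C57BL/6J mice, which gave 1 library each and formed 5 groups of 6. Vehicle was given to females on CD, males on CD, females on HFD and males on HFD, and a further group of males on HFD was treated with estradiol (E2) at 0.5 mg/kg. Feeding with control diet (CD, 10% of energy from fat) or high-fat diet (HFD, 60%) lasted 13 weeks from an age of 5 to 6 weeks, and each mouse had 9 intraperitoneal injections over the final 3 weeks. The females kept their ovaries, so their own estrogen was present in both diets, and no female group with E2 was analysed here.

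Amino acids enter cells through transporters with distinct substrates. The protein of Slc7a5 (LAT1) exchanges intracellular glutamine for leucine and other large neutral amino acids and works as a heterodimer with the heavy chain encoded by Slc3a2 (CD98hc), which also pairs with the cystine/glutamate exchanger encoded by Slc7a11 (xCT). When uncharged tRNA or misfolded protein accumulates, phosphorylation of eIF2alpha slows general translation and favours translation of Atf4, which then induces transporters, Asns, Ddit3 (CHOP) and Trib3. Since Atf4 is controlled largely at translation, its mRNA level is not a measure of its activity. In the intestine, amino acid uptake supplies both the rapidly renewed epithelium and the immune cells beneath it.

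Total counts on genes ranged from 8667177 to 17243712 per library, with a median of 11530915, and mitochondrial genes took 26.1% to 38.0% of them. Markers of colonocytes and goblet cells were expressed in all 5 groups, as the tissue label states. Of 15 genes of squamous epithelium, which lines the anal canal rather than the colon, the summed level exceeded 100 TPM (a level per transcript length that adds up to the same total in every library) in 6 libraries, namely HFD females 1, 3, 4 and 5 and HFD males 2 and 4. The other 24 libraries had 1.34 to 16.6 TPM. Where leaving out these 6 libraries turned the sign of a log2 fold change of the 10 genes or moved it by over 1.5 times, the value or the range without them is given too.

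The DNA upstream of these genes was searched for the C/EBP-ATF response element, the composite site through which Atf4 acts. The choice of genes included known targets of Atf4, so the matches are a description and not an independent test. Promoter sequences of RefSeq on GRCm38.p6 were matched for 8 of the 10 genes, and Slc7a5 and Slc1a5 were not matched. With the letters TGATGNAAN searched on both strands in the 250 bases before the start, 2 of the 8 held a match, against 3.44% of 32851 promoters of the same length. Sites farther upstream or after the start were not searched, so a gene without a match here may hold one elsewhere. Slc7a11 held 2 matches, 1 on each strand, from 66 to 58 and from 48 to 40 bases before the start. Asns held 1, from 23 to 15 bases before the RefSeq start, where the GENCODE M21 annotation of the same build places the first exon, a 5' untranslated part, of Asns. The full palindrome TGACGTCA of the cAMP response element was found in none of the 8, against 1.55% of all promoters. The matches stand below in capitals, read on the strand of the gene, with Slc7a11 at chr3:50443642-50443689 (minus strand) and Asns at chr6:7693213-7693242 (minus strand).
Slc7a11: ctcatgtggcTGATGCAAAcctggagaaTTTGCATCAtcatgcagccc
Asns: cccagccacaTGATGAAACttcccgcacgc

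The 10 genes were expressed over a wide range in colon. On the TPM scale, which is corrected for gene length, the highest mean over 30 libraries was that of Slc6a14, a broad neutral and cationic amino acid transporter, at 172 ± 61.4 (SD, n = 30). It was followed by Atf4 (47.4 ± 5.81), by Slc38a2 (41.9 ± 11.3), the sodium-coupled glutamine and alanine transporter SNAT2, and by Slc1a5 (35.4 ± 8.65), the glutamine exchanger ASCT2. Slc3a2 (16.8 ± 2.10), Ddit3 (12.2 ± 2.60) and Asns (9.24 ± 1.98) were intermediate. Slc7a5 (1.44 ± 0.654), Slc7a11 (0.943 ± 0.621) and Trib3 (0.137 ± 0.114), a pseudokinase gene, were at the low end. The ranges of neighbours in this order overlapped, except that every library had more Slc6a14 than any library had Atf4, and more Asns than any had Slc7a5. Spread differed too. The highest library exceeded the lowest by 1.69-fold for Atf4 and 1.72-fold for Slc3a2, but by 5.27-fold for Slc7a5 and 10.3-fold for Slc7a11.

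Slc7a5 (ENSMUSG00000040010, chr8:121881150-121907694, minus strand, GRCm38) was low in every library, with 19 to 99 counts. Its median level was 1.10 TPM in CD females (0.885 to 1.31, lowest to highest) and 1.48 TPM in HFD females (1.06 to 3.55). In males the order was the opposite, with a median of 1.84 TPM on CD (1.29 to 2.47) and 0.886 TPM on HFD (0.679 to 2.29). HFD males given E2 had a median of 1.40 TPM (0.674 to 2.02). By the group means, CD males (1.87 ± 0.491) and HFD females (1.83 ± 0.915) were highest, E2-treated HFD males intermediate (1.32 ± 0.540), and CD females (1.09 ± 0.180) and HFD males (1.09 ± 0.599) lowest.

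**Figure D1:**
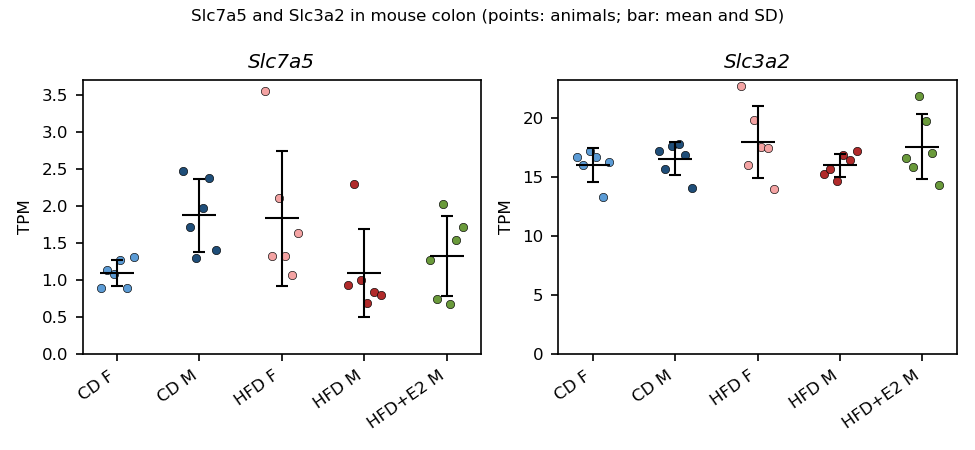
TPM (y axis) of Slc7a5 and of its heavy chain partner Slc3a2 in the 5 groups (x axis), with 1 point per animal and the mean and SD as bars, n = 6 per group. The mean of Slc7a5 was higher on HFD than on CD in females (1.83 against 1.09) and lower in males (1.09 against 1.87), with 1 high HFD female at 3.55 TPM, whereas the group means of Slc3a2 lay between 15.98 and 17.91 TPM.

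The mean Slc7a5 level was thus higher on HFD in females and lower on HFD in males. In the edgeR fit of counts, the log2 fold change of HFD over CD was 0.69 (SE 0.26) in females and -0.76 (SE 0.23) in males, and the female minus the male value was 1.45 (SE 0.34) in a fit of the 24 vehicle-treated mice. In log2 CPM (counts scaled to the library total after TMM normalization), 4 of 6 HFD females were above the highest CD female. Of the HFD males, 5 of 6 were below the lowest CD male, so that both pairs of groups still overlapped. HFD male 2, at 2.29 TPM, was the exception in males, and it was 1 of the 6 libraries rich in squamous markers.

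The 2 responses differed in how far they rested on a few libraries. In males, the log2 fold change was -0.93 without HFD male 2 and -0.90 without both squamous-rich males, and it stayed between -0.93 and -0.67 over the 22 alternative fits. In females, it was 0.42 without HFD female 1 (3.55 TPM), 0.33 (SE 0.30) without the 4 squamous-rich females, which left 2 HFD females, and 0.27 (SE 0.33) with the squamous score as a covariate. Plasma cell markers moved with diet in females as well: 6 genes summed to 102 to 232 TPM in HFD females and to 39.4 to 94.9 TPM in CD females, with none of the 6 at 0 throughout a group. HFD males had 36.5 to 95.3 TPM and CD males 33.0 to 75.6. The part of these cells in the Slc7a5 level was not tested. In whole tissue, fewer cells of a type and less RNA per cell cannot be told apart.

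**Figure D2:**
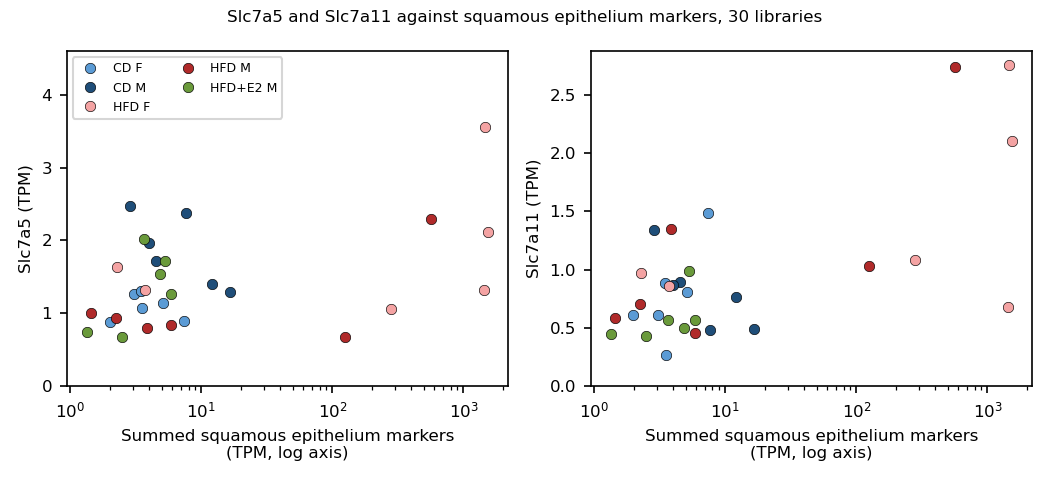
Slc7a5 and Slc7a11 (TPM, y axis) against the summed TPM of 15 squamous epithelium markers (x axis, log scale) in 30 libraries, coloured by group. The 3 libraries with the highest Slc7a11 (2.75, 2.74 and 2.10 TPM) all had 564.7 TPM of squamous markers or more. The library with the highest Slc7a5 (3.55 TPM) was among them. HFD female 4, with 1431 TPM of squamous markers, had 0.680 TPM of Slc7a11, the lowest of the HFD females, and 1.32 TPM of Slc7a5.

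Slc3a2 (ENSMUSG00000010095, chr19:8706882-8723369, minus strand) had the signs of Slc7a5 in both comparisons of diet, but its levels differed little. Its median was 16.5 TPM in CD females (13.2 to 17.2) and 17.5 TPM in HFD females (13.9 to 22.7). In males, the median was 17.0 TPM on CD (14.1 to 17.8) and 16.01 TPM on HFD (14.6 to 17.1). The log2 fold changes of HFD over CD were 0.06 (SE 0.09) in females and -0.07 (SE 0.11) in males. In females the value was -0.15 (SE 0.13) without the squamous-rich libraries and -0.14 (SE 0.11) with the squamous score, so its sign turned. Per length, Slc3a2 mRNA exceeded that of Slc7a5 in every library, and its lowest library (13.2 TPM) stood above the highest of Slc7a5 (3.55 TPM).

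Slc7a11 (ENSMUSG00000027737, chr3:49892526-50443614, minus strand) imports cystine for glutathione synthesis and had 22 to 172 counts. Its median was 0.711 TPM in CD females (0.268 to 1.49) and 1.03 TPM in HFD females (0.680 to 2.75). In males it was 0.814 TPM on CD (0.479 to 1.34) and 0.866 TPM on HFD (0.455 to 2.74). A few HFD libraries stood high in both sexes, and the log2 fold changes of HFD over CD were 0.74 (SE 0.34) in females and 0.62 (SE 0.38) in males. Without the squamous-rich libraries they were 0.16 (SE 0.39) and 0.13 (SE 0.31). In males, leaving out HFD male 2 alone gave 0.17.

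Slc6a14 (ENSMUSG00000031089, chrX:21714896-21742355, plus strand) had signs opposite to those of Slc7a5. In females the median was 197 TPM on CD (151 to 279) and 154 TPM on HFD (137 to 348), with a log2 fold change of -0.26 (SE 0.18). Leaving out HFD female 2 (348 TPM) made it -0.48, and leaving out the squamous-rich libraries turned it to 0.19 (SE 0.20). In males the median was 121 TPM on CD (101 to 250) and 183 TPM on HFD (124 to 285), with a log2 fold change of 0.38 (SE 0.19), which was 0.12 (SE 0.11) with the smooth muscle score as a covariate.

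The other genes differed little with diet. For Slc38a2 (chr15:96687394-96699698, minus strand), the fold change of HFD over CD was -0.16 (SE 0.16) in females and 0.19 (SE 0.11) in males, on the log2 scale. For Slc1a5 (chr7:16781346-16798274, plus strand) the values were 0.03 (SE 0.15) and -0.03 (SE 0.15). Asns (chr6:7675169-7693254, minus strand), which makes asparagine and is a standard readout of Atf4, had -0.12 (SE 0.13) and 0.07 (SE 0.16). Atf4 itself (chr15:80255184-80257540, plus strand) had -0.07 (SE 0.09) and -0.01 (SE 0.10), and Ddit3 (chr10:127290774-127296288, plus strand), a factor of prolonged stress, had 0.10 (SE 0.13) and 0.02 (SE 0.20). Without the squamous-rich libraries these 5 genes had values from -0.06 to 0.18 in females and from -0.07 to 0.14 in males, and several signs turned. Trib3 (chr2:152337422-152344032, minus strand) had 0 to 8 counts in all 30 libraries, which did not pass the filter on low counts, so its levels could not be compared at this depth.

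The study's threshold (log2 fold change above 0.4 in either direction with p below 0.05, read here as unadjusted) was passed by 2 of the 9 tested genes in females (Slc7a5 and Slc7a11, both higher on HFD) and by 1 in males (Slc7a5, lower on HFD). Of all tested genes, 3.67% were past it in females (2.95% as higher) and 2.9% in males (1.64% as lower). These comparisons were part of the choice of genes, so the counts are given without further reading. With Benjamini-Hochberg adjustment over all genes in edgeR, 0 of 9 passed in either sex (0.0199% and 0.0% of all genes), as with DESeq2. An unadjusted p under 0.05 was found for 2 in females and 1 in males, beside 856 of 15061 and 904 of 14991 genes. The median log2 fold change over the 9 genes was 0.03 in females and 0.02 in males, beside 0.00 and -0.01 over all tested genes.

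**Figure D3:**
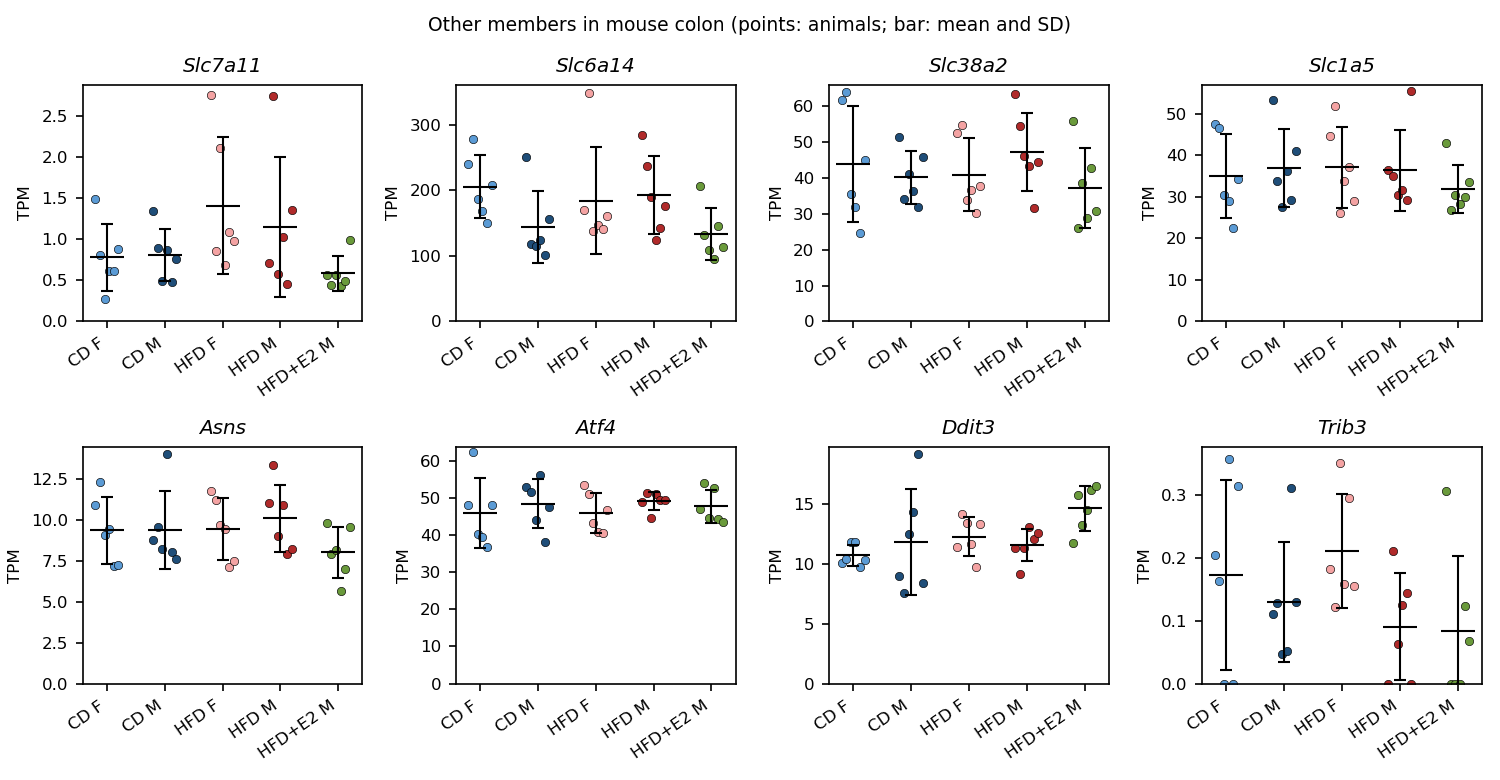
TPM (y axis) of the other 8 genes in the 5 groups (x axis), with 1 point per animal and the mean and SD as bars, n = 6 per group. A few high animals set the upper end for Slc7a11 (2.75 and 2.10 TPM in HFD females, 2.74 TPM in an HFD male). For Slc6a14 it was 1 HFD female (348 TPM), and Trib3 was at most 0.357 TPM.

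The comparison of E2 with vehicle in HFD males asked whether estrogen treatment changes these genes in the obese male colon. The same 6 HFD males served in the diet comparison, so the values of the 2 comparisons are not independent. None of the 9 tested genes passed the adjusted threshold in edgeR (0.00666% of 15010 genes did) or in DESeq2. An unadjusted p under 0.05 was found for 2 of the 9, beside 1535 of 15010 genes. Ddit3 was the 1 gene past the study's threshold, beside 5.87% of all genes, 2.63% of them as higher. The median over the 9 genes was -0.04, beside 0.00 over all tested genes.

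Ddit3 had a median of 15.1 TPM in E2-treated males (11.7 to 16.5) and 11.7 TPM in vehicle-treated males (9.14 to 13.0). In log2 CPM, 3 of 6 treated animals were above the highest vehicle-treated animal, with a log2 fold change of 0.43 (SE 0.18, edgeR adjusted p = 0.461; exact two-sided permutation p = 0.0390, unadjusted). It did not pass adjustment, and the adjusted p ranged from 0.173 to 0.851 over 22 alternatives. Slc3a2 had a median of 16.8 TPM with E2 (14.3 to 21.8), and its log2 fold change was 0.29 (SE 0.13, adjusted p = 0.476).

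Slc7a5 had a log2 fold change of 0.24 (SE 0.23) with E2, or 0.36 (SE 0.25) without both squamous-rich HFD males, and the groups overlapped at both ends. Slc7a11 had a median of 0.529 TPM in treated males (0.430 to 0.992), and 3 of 6 were below the lowest vehicle-treated male in log2 CPM. Its log2 fold change was -0.75 (SE 0.36, adjusted p = 0.491), but -0.29 without HFD male 2 and -0.26 without both squamous-rich HFD males. Slc6a14 had a median of 123 TPM with E2 (94.9 to 206) and a log2 fold change of -0.36 (SE 0.18, adjusted p = 0.493). Slc38a2, Slc1a5, Asns and Atf4 had log2 fold changes from -0.19 to 0.13, with adjusted p from 0.575 to 0.908 in edgeR, and from -0.16 to 0.16 without those 2 males.

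**Figure D4:**
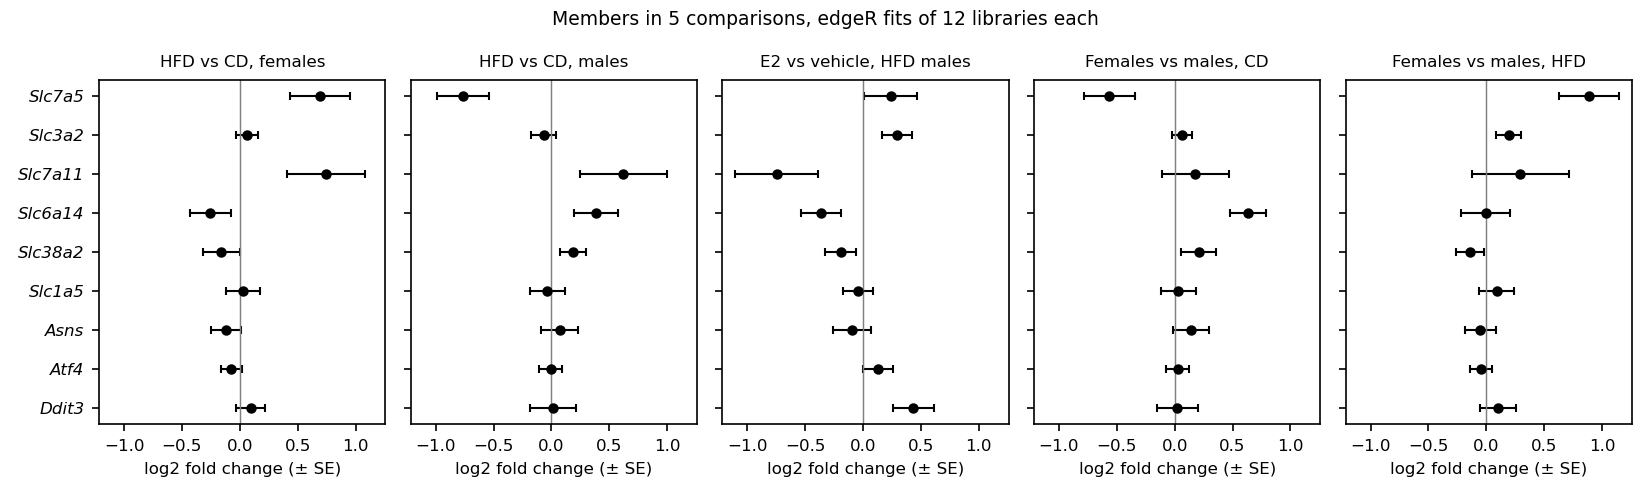
Log2 fold change (x axis) with its SE (bars) from edgeR for 9 genes (y axis) in 5 comparisons of 12 libraries each. The Slc7a5 values were 0.69 and -0.76 with HFD in females and males, and Slc6a14 was the 1 gene past the adjusted threshold, in CD females against CD males (0.63).

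The comparison of females with males on CD was the one in which a gene passed the adjusted threshold. Slc6a14, which lies on the X chromosome, was higher in CD females (206 ± 47.5 TPM, n = 6) than in CD males (144 ± 55.2 TPM), with a log2 fold change of 0.63 (SE 0.16, edgeR adjusted p = 0.0393; exact permutation p = 0.0108). In log2 CPM, 2 of 6 females were above the highest male (male 1, 250.4 TPM), so the groups overlapped. Of 14922 genes tested, 2.92% passed the same threshold (0.777% as higher in females), so 1 of 9 is read against a high background. At the study's threshold, which 9.15% of all genes passed, Slc6a14 was higher in females (2.94% of all genes) and Slc7a5 lower (6.21%). An unadjusted p under 0.05 was found for 2 of the 9, beside 2207 of 14922 genes.

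The Slc6a14 call depended on which animals and covariates were in the fit. It was lost in 9 of the 12 fits that left out 1 animal, with adjusted p up to 0.102, although the log2 fold change stayed between 0.56 and 0.80. The smooth muscle content of the tissue moved with sex in the same mice. The 9 smooth muscle markers, none of them at 0, summed to 2532 to 3930 TPM in CD females and 3988 to 6667 TPM in CD males, without overlap. With the smooth muscle score as a covariate the log2 fold change was 0.11 (SE 0.14, adjusted p = 0.693), and with the B cell score it was 0.42 (SE 0.16, adjusted p = 0.424). Because the muscle marker sums did not overlap between the sexes, fits with the smooth muscle score on CD cannot tell sex from tissue content. B cell markers summed to 13.3 to 57.8 TPM in CD females and 0.640 to 43.6 TPM in CD males.

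Slc7a5 was lower in CD females than in CD males by the levels above, with 3 of 6 females below the lowest male in log2 CPM. The log2 fold change was -0.56 (SE 0.22). It was -0.46 (SE 0.33) with the smooth muscle score and -0.74 (SE 0.27) with the B cell score. The remaining 7 tested genes had log2 fold changes from 0.02 to 0.21 and edgeR adjusted p from 0.581 to 0.971, and the median over the 9 was 0.07, beside 0.01 over all tested genes. Both CD groups also served in the comparisons of diet.

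On HFD, the order of the sexes for Slc7a5 was reversed. HFD females were higher than HFD males by a log2 fold change of 0.89 (SE 0.26), and 4 of 6 females were above the highest male in log2 CPM. Without the squamous-rich libraries the log2 fold change was 0.64 (SE 0.33). Slc7a5 was the 1 of 9 genes past the study's threshold (3.09% of all genes, 2.01% as higher in females). The adjusted threshold was passed by 0 of 9 in edgeR (0.0988% of all genes) or DESeq2. An unadjusted p under 0.05 was found for 1 of 9, beside 773 of 15179 genes. Nothing is read from the count that Slc7a5 makes up. The 7 genes other than Slc7a5 and Slc6a14 had log2 fold changes from -0.14 to 0.29, or from -0.03 to 0.19 without the squamous-rich libraries. Slc6a14 did not differ beyond its spread, with a log2 fold change of -0.01 (SE 0.21, adjusted p = 0.998). Its sex difference was smaller on HFD than on CD by 0.64 (female minus male diet response -0.64, SE 0.28), given without a p-value because the same libraries form the comparisons of diet. Without the squamous-rich libraries the sex difference of Slc6a14 on HFD was 0.39 (SE 0.25), closer to the 0.63 on CD, and with the smooth muscle score the values were -0.16 (SE 0.15) on HFD and 0.11 (SE 0.14) on CD. Over all 5 comparisons, no tested gene of the 9 had groups without overlap in log2 CPM, beside 0.212%, 0.354%, 0.413%, 2.18% and 0.362% of all genes in the order used here.

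Animals within a group differed from each other in several of these genes at once. After the group mean was subtracted from log2 CPM, 6 of the 36 pairs among the 9 tested genes had a correlation over the 30 libraries with an adjusted p under 0.05 (permutation within groups, adjusted over 36 pairs), 3 positive and 3 negative. The share over pairs of all genes was not computed, so the count is not read as particular to these genes. The transporter genes Slc6a14 and Slc38a2 went together most closely (Pearson r = 0.67, adjusted p = 0.00036; Spearman rho = 0.63, adjusted p = 0.00576; r = 0.66 without the 2 farthest libraries). Slc6a14 and Slc1a5 had r = 0.56 (adjusted p = 0.0207; rho = 0.53, adjusted p = 0.0240; 0.39 without the 2 farthest). Slc38a2 and Slc1a5 had r = 0.55 (adjusted p = 0.0325; rho = 0.50, adjusted p = 0.0634; 0.48 without them), so these 3 transporter genes varied together.

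Slc3a2 varied against Slc6a14 and Slc38a2, whereas its r with Slc1a5 was -0.25 (permutation within groups, adjusted p = 0.45). It had r = -0.60 with Slc6a14 (adjusted p = 0.0196; rho = -0.64, adjusted p = 0.0144; -0.65 without the 2 farthest libraries). With Slc38a2 it had r = -0.48 (adjusted p = 0.0468; rho = -0.55, adjusted p = 0.0229; -0.59 without them). Ddit3 and Slc38a2, both known targets of Atf4, had r = -0.53 (adjusted p = 0.0196; rho = -0.55, adjusted p = 0.0203; -0.50 without them). No pair that included Atf4 or Asns had an adjusted p under 0.05, and the r of Atf4 with Asns was 0.25.

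The same animals differed in smooth muscle content. Against the smooth muscle score, centred in the same way, r was -0.79 for Slc6a14 (rho = -0.79), -0.70 for Slc38a2 (rho = -0.74), -0.57 for Slc1a5 (rho = -0.55) and 0.58 for Slc3a2 (rho = 0.63). The adjusted permutation p over 9 genes were 9e-05, 0.000135, 0.00601 and 0.00468 for r, and 4.5e-05, 4.5e-05, 0.00880 and 0.00081 for rho. Without the 2 farthest libraries r was -0.74, -0.67, -0.53 and 0.57. Slc7a5 had r = -0.08 (rho = -0.03, adjusted p = 0.701 and 0.898; 0.02 without the 2 farthest). After the smooth muscle score was also removed, the 6 pairs had r of 0.26, 0.22, 0.25, -0.28, -0.13 and -0.38 in the order given, so each was smaller in size. The score and the genes come from the same libraries and share their scaling. The share of all genes that follow the score to this degree was not computed.

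**Figure D5:**
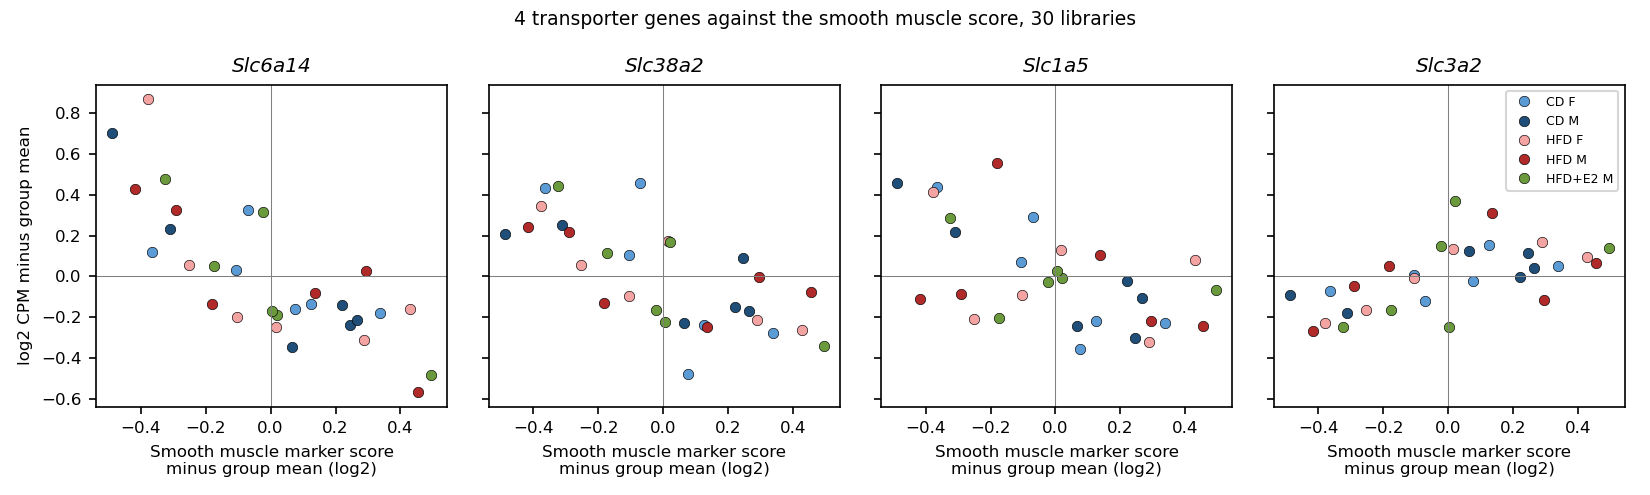
Log2 CPM minus the group mean (y axis) of 4 transporter genes against the mean log2 CPM of 9 smooth muscle markers minus the group mean (x axis), 30 libraries coloured by group. Slc6a14 (r = -0.79), Slc38a2 (-0.70) and Slc1a5 (-0.57) decreased along the score and Slc3a2 (0.58) increased.

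Slc7a5 varied apart from most of the other genes. Its largest within-group correlation among them was with Slc7a11 (r = 0.44, rho = 0.35, adjusted p = 0.115 and 0.251), which fell to 0.17 without the 2 farthest libraries and so rested on them. Its r with its partner Slc3a2 was 0.24, and 1256 of 15444 other genes had a higher one. The 5 genes most like Slc7a5 over the 30 libraries, among genes of at least 1 TPM, were the immunoglobulin variable genes Igkv6-17 (r = 0.70) and Ighv5-9-1 (r = 0.61), Far2 (r = 0.63), which reduces fatty acyl-CoA, the carbonic anhydrase gene Car3 (r = 0.61), and the ribosomal pseudogene Rpl35a-ps3 (r = 0.61). Without subtraction of group means, these r values were 0.64, 0.67, 0.39, 0.38 and 0.49. They were picked as the highest of many genes and are a description.

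Of 84 other genes of amino acid handling and its control, in 6 lists, 74 or 75 were tested in each comparison. The adjusted threshold in edgeR was passed by 3 of 75 in CD females against CD males, beside 2.92% of all genes. It was passed by 0 in the other 4 comparisons. DESeq2 called 5 in CD females against CD males, 1 in HFD over CD females and 0 elsewhere. Its share over all genes is not given here. With HFD, 10 in females and 7 in males had an unadjusted p under 0.05, beside 856 of 15061 and 904 of 14991 genes. The counts were 8 with E2 and 4 in HFD females over males, beside 1535 of 15010 and 773 of 15179 genes. In CD females over males the count was 16, beside 2207 of 14922 genes. At the study's threshold the counts were 6, 2, 5, 7 and 1 in HFD over CD females, HFD over CD males, E2 over vehicle, CD females over males and HFD females over males, beside 3.67%, 2.9%, 5.87%, 9.15% and 3.09% of all genes in the same order. None of the 12 aminoacyl-tRNA synthetases and none of the 8 genes that control eIF2alpha was past that threshold in any of the 5 comparisons, and with these shares of all genes, lists of that size would hold few such genes or none. The list medians ranged from -0.13 to 0.19, beside -0.01 to 0.01 over all tested genes.

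The 3 genes that passed in CD females against males were 2 transporter genes and 1 Atf4 target. Slc38a1, a glutamine transporter gene, was higher in females (18.4 ± 2.75 against 13.9 ± 0.561 TPM, log2 fold change 0.53, SE 0.11, adjusted p = 0.0157). Slc1a1, the glutamate transporter gene of epithelia, was also higher (22.9 ± 4.40 against 18.7 ± 2.70 TPM, log2 fold change 0.40, SE 0.09, adjusted p = 0.0177), with no overlap between the groups in log2 CPM. Stc2, a secreted glycoprotein gene, was lower (0.854 ± 0.354 against 1.41 ± 0.198 TPM, log2 fold change -0.85, SE 0.21, adjusted p = 0.0390). With the smooth muscle score as a covariate, the values were 0.74 (adjusted p = 0.0227), 0.30 (0.194) and -0.54 (0.362), so Slc38a1 alone stayed past the threshold there. With the B cell score, none of the 3 did (adjusted p = 0.186, 0.272 and 0.497). The squamous score also left none past it (adjusted p = 0.0519, 0.0512 and 0.0761), with log2 fold changes of 0.52, 0.40 and -0.87. Of the genes past the study's threshold only, Atf3, a stress-induced transcription factor gene, had a log2 fold change of females over males of 1.52 on CD (SE 0.64, adjusted p = 0.280; exact permutation p = 0.169) and of -0.77 on HFD (SE 0.31, adjusted p = 0.872). Slc7a8, a light chain relative of Slc7a5, had 0.74 (SE 0.24, adjusted p = 0.133) on CD, and the enzyme genes Aldh1l2 and Psat1 had -0.89 (SE 0.30, adjusted p = 0.143) and -0.50 (SE 0.22, adjusted p = 0.290). With the smooth muscle score, the values on CD were 0.73 (SE 1.18) for Atf3, 1.32 (SE 0.36) for Slc7a8, -0.40 (SE 0.39) for Aldh1l2 and -0.43 (SE 0.34) for Psat1.

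With E2, 5 genes of the lists were past the study's threshold and none passed adjustment in edgeR. Slc3a1, the heavy chain of the cystine and dibasic amino acid transporter, was at 0.519 ± 0.254 TPM in treated and 0.179 ± 0.0691 TPM in vehicle-treated HFD males. Its log2 fold change was 0.9996 (SE 0.2955, edgeR adjusted p = 0.454). The groups did not overlap in log2 CPM, beside 0.413% of all genes tested with E2. The exact permutation p was 0.00216, unadjusted, the smallest that 6 against 6 can give, which every gene without overlap has. Slc3a1 was named for its small p in this comparison, so these values are a description. Psat1, of serine synthesis, was at 2.20 ± 1.32 and 4.29 ± 2.05 TPM (-0.93, SE 0.32, adjusted p = 0.455). The arginine and lysine transporter gene Slc7a2 had -0.72 (SE 0.21, adjusted p = 0.454), the quinone reductase gene Nqo1 -0.48 (SE 0.22, adjusted p = 0.478) and the stress gene Nupr1 0.52 (SE 0.20, adjusted p = 0.461). With the squamous score, Psat1 had -0.49 (SE 0.29), Slc7a2 -0.50 (SE 0.21) and Nqo1 -0.25 (SE 0.22), while Slc3a1 had 0.92 (SE 0.33) and Nupr1 0.51 (SE 0.23).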

How the data were processed

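RNA-seq was performed on colon RNA of 30 mice (6 per group, 1 library each) with ribosomal RNA depletion and a stranded kit. The authors mapped reads to GRCm38 (mm10) with STAR and deposited raw gene counts from featureCounts and TPM values from StringTie. The submitters' processing notes also name bcl2fastq 2.19.1.403, CASAVA and Trim Galore, without roles. FPKM and coverage columns in the deposited tables were not used. Groups came from the sample titles and labels of diet, sex and treatment. Matching each library's counts to the TPM tables by their correlation gave its own table in 30 of 30 cases, and no 2 libraries had identical counts. TPM sums to 1000000 per library and is given as mean ± SD or lowest, median and highest. Genes listed more than once in a TPM table were summed.

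In each comparison, 12 libraries of raw counts entered an edgeR 4.0.16 fit under R 4.3.3 (filterByExpr, TMM normalization, robust quasi-likelihood F-test, Benjamini-Hochberg adjustment over all tested genes, threshold 0.05). Fold changes follow the counts and can differ in sign from ratios of mean TPM when small. The study's threshold was a log2 fold change above 0.4 in size with p below 0.05; whether that p was adjusted is not stated, and it was taken as unadjusted. For single genes, log2 CPM (prior count 2) was permuted between groups in an exact two-sided test with a smallest possible p of 0.00216. Correlations used 100000 permutations within groups, whose smallest p is 1e-05. Marker scores are the mean log2 CPM of a list. On simulated counts of females and males on CD, with 200 genes changed by 2-fold, edgeR called 168 of 195 changed genes that passed the filter and 8 unchanged genes, of 14888.

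The named genes were the 10 genes, those of 84 genes in 6 lists past the adjusted threshold or, for E2 and sex, the 2 per direction and list with the smallest p past the study's threshold, and the 5 genes most like Slc7a5. The 10 genes, the lists and the tests were chosen with earlier results of these data known. Alternatives were DESeq2 1.42.0, its size factors, no filter, at least 10 counts in every library, a mean of at least 1 TPM, all 30 libraries in 1 fit, a replicate block, 3 marker scores as covariates, log2 TPM with 0.1 or 1 added, and each library left out. Leaving out the squamous-rich libraries and removing the smooth muscle score from correlations were added after the data were seen. Counts are of reads without molecular identifiers.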

Additional observations from a re-analysis of the deposited data

Results flagged for a closer look

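In 9 of 50 sets of 6 animals (10 genes in 5 groups), 1 animal stood apart from the other 5 in TPM. Its gap took a larger share of the range than Dixon's 95% value of 0.625. Chance gives about 1 in 20 sets if values are normally distributed. TPM values may not be, and the sets share animals, so the 9 are not read as an excess. For Slc7a5 the animal that stood apart was HFD male 2 (2.29 TPM, next 0.998), whose diet comparison is given above with and without it. For Slc6a14 it was CD male 1 (250.4 TPM, next 155) and HFD female 2 (348 TPM, next 170). The Slc6a14 difference between CD females and males was 0.80 without CD male 1 (edgeR adjusted p = 0.00148). For Slc7a11 it was E2-treated male 6 (0.992 TPM, next 0.565), for Slc3a2 CD female 5 (13.2 TPM, the lowest, with the others at 15.999 TPM or more), for Slc1a5 HFD male 6 (55.4 TPM, next 36.4) and for Asns CD male 4 (14.0 TPM, next 9.56). For Atf4 it was HFD male 3 (44.5 TPM, next 48.8), and for Trib3 CD male 5 (0.310 TPM, next 0.130), which rests on 8 counts.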

How the results depend on the processing

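Slc7a5 kept its sign in all 5 comparisons under 21 or 22 alternatives each, and with log2 TPM; its diet responses were part of the choice of genes. No tested gene passed the adjusted threshold in an alternative of the diet, E2 or HFD sex comparisons. The Slc6a14 call on CD was lost (0 genes past the adjusted threshold) with no filter, with all 30 libraries in 1 fit and with each of the 3 scores, and 0 to 1 remained when 1 library was left out; the adjusted p ranged from 0.00148 to 0.693. At the study's threshold, the 2 genes of HFD in females became 1 with no filter and with the smooth muscle score, 0 with the squamous score, the B cell score and without squamous-rich libraries, and 0 to 3 with 1 library left out. The 1 gene of HFD in males became 2 without squamous-rich libraries (1 to 2 with 1 library left out). The 1 gene of E2 became 2 with DESeq2, 0 with the squamous and smooth muscle scores and 3 with the B cell score (0 to 2 with 1 left out). For the sexes, leaving out 1 library gave 1 to 2 on either diet, and HFD without squamous-rich libraries gave 0. The causes were not tested.

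Small log2 fold changes that were not called changed sign. For HFD over CD in females, these were Slc3a2 (-0.14), Slc6a14 (0.16) and Atf4 (0.024) with the squamous score, Slc3a2 (-0.0099) and Slc38a2 (0.0024) with the smooth muscle score, and these 4 genes (-0.15, 0.19, 0.027 and 0.021 in the order named) without squamous-rich libraries. With 1 library left out, Slc1a5 ranged from -0.065 to 0.12. In males they were Asns (-0.014) and Slc1a5 (0.020) with the squamous score, Slc3a2 (0.013) and Atf4 (0.037) with the smooth muscle score, Asns (-0.068) and Slc1a5 (0.043) without squamous-rich libraries, and Atf4 with DESeq2 (0.0017) and with its size factors (0.00046). With 1 library left out, the male values ranged from -0.029 to 0.19 for Asns, -0.17 to 0.070 for Slc1a5, -0.072 to 0.031 for Atf4 and -0.081 to 0.14 for Ddit3. In the E2 and sex comparisons, with the smooth muscle score these were Slc1a5 with E2 (0.015) and, for females over males on CD, Slc7a11 (-0.78), Slc38a2 (-0.25) and Slc1a5 (-0.50). With the B cell score they were Slc7a11 (-0.34) and Slc1a5 (-0.16) on CD. With the squamous score they were Asns with E2 (0.029), Atf4 for the sexes on CD (-0.0053), and Slc7a11 (-0.15) and Slc6a14 (0.13) for the sexes on HFD. Without squamous-rich libraries they were Asns with E2 (0.030) and, for the sexes on HFD, Slc3a2 (-0.027), Slc6a14 (0.39), Slc38a2 (0.068), Asns (0.13) and Atf4 (0.076). With at least 10 counts in every library, Slc6a14 on HFD was 0.0050. With 1 library left out, the values ranged with E2 from -0.098 to 0.098 for Slc1a5 and from -0.17 to 0.0013 for Asns. For the sexes on CD they ranged from -0.051 to 0.067 for Atf4, -0.057 to 0.15 for Ddit3, -0.070 to 0.13 for Slc1a5 and -0.052 to 0.35 for Slc7a11. On HFD they ranged from -0.10 to 0.048 for Asns, -0.082 to 0.017 for Atf4, -0.0053 to 0.22 for Slc1a5 and -0.24 to 0.092 for Slc6a14.

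Animals with the same replicate number did not deviate together in every pair (3 to 5 of 6 pairs had a correlation over 0.1). Whether the numbers mark a shared batch was not tested. For Slc6a14 in HFD over CD females, the SE was 0.10 with a replicate block and 0.18 without it. With a replicate block, 2 genes instead of 1 were past the study's threshold with E2, and the Slc6a14 log2 fold change on CD was 0.67 (adjusted p = 0.00286). Low counts limit Slc7a5 and Slc7a11, and Trib3 could not be tested.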
